A study of Mus musculus with 3 samples.

Results

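The 6 transcription regulators *Cux1*, *Cux2*, *Rorb*, *Pou3f2*, *Pou3f3* and *Lmo4*, which mark upper-layer and callosal projection neurons, were followed through 3 single-cell libraries. They were taken by symbol from the deposited table of filtered cells, and all 6 of the 6 were among its 14933 genes. The cells were sorted for tdTomato from the medial prefrontal cortex (mPFC) of C57Bl6 mice at postnatal day 5 (P5), and 1 library was made per genotype with a droplet kit that counts transcript 3′ ends as unique molecular identifiers (UMIs). The wild-type library carried *Rbp4-cre* and the tdTomato reporter (Rbp4cre::tdTomato). The heterozygous library carried 1 floxed *Tbr1* allele with the same transgenes (Tbr1f/+::Rbp4cre::tdTomato), and in the homozygous library both *Tbr1* alleles were floxed (Tbr1f/f::Rbp4cre::tdTomato). Cre from the *Rbp4* transgene acts in layer 5 pyramidal neurons, switches on tdTomato and removes *Tbr1* exons 2 and 3 around birth. All 3 libraries thus hold Cre and reporter, the number of mice in each is not given in the sources used here, and no test between genotypes was possible with 1 library each.

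The neocortex is built of layers of projection neurons with different targets. Neurons of the upper layers send many axons through the corpus callosum or to nearby areas, whereas many, though not all, neurons of the deep layers project to the thalamus, brainstem or spinal cord. CUX1 and CUX2 are Cut-family homeodomain factors of upper-layer neurons that shape dendrites and synapses. RORB is an orphan nuclear receptor of layer 4 that is also made by astrocytes, POU3F2 (Brn2) and POU3F3 (Brn1) are POU-domain factors of progenitors and of their upper-layer daughters, and LMO4 is a LIM-only adaptor of callosal neurons without DNA-binding activity of its own. TBR1 is a T-box factor of deep-layer neurons.

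Typical neuronal cells are those that the study compared between genotypes, and atypical neuronal cells those that it set aside for low excitatory markers. All other filtered cells are called outside cells. The study filtered its neuronal clusters a further time by UMIs and genes per cell, so outside cells may include neurons removed at that step. Typical cells numbered 1778 (wild-type), 5357 (heterozygous) and 3935 (homozygous), with 3670646, 10418228 and 6074494 UMIs and median depths of 1901, 1743 and 1375 UMIs per cell. Atypical cells numbered 304, 107 and 462, and outside cells 2873, 1398 and 1182. Between 37 and 58 cell barcodes were shared by any pair of libraries. Values in rows of 3 are given for the wild-type library first, the heterozygous one next and the homozygous one last. Levels are UMIs per 1000000 UMIs of the class (CPM), with an exact Poisson 95% interval, and ratios are log2 ratios of CPM with an exact binomial 95% interval. Both cover counting error only. Because each tag stands for 1 molecule whatever its length, CPM of different genes were set side by side. In typical cells all 7 excitatory markers were detected in every library and summed to 2029, 2454 and 3103 CPM, against 1076, 1574 and 1802 CPM in empty droplets, which are non-cell barcodes of 100 UMIs or more, capped below the depth of any cell used. Astrocyte and radial glia markers summed to 8455, 7426 and 8371 CPM in typical cells and to 8159, 7687 and 8433 CPM in empty droplets, close to each other in every library. In outside cells, which include the astrocyte-like cells named below, they summed to 6174, 6518 and 6170 CPM. This sum therefore does not single out astrocyte RNA. *Tbr1* stood at 27.5, 30.7 and 22.4 CPM, and since its tags lie at the 3′ end, downstream of the removed exons, this level does not check the deletion. *Rbp4* stood at 12.3, 14.7 and 14.3 CPM.

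The annotated start regions of the genes are shown because *Cux2* and *Rorb* are the members that were higher in both mutant libraries and TBR1 is a DNA-binding protein. All 6 genes matched the promoter table of RefSeq on GRCm38.p6, with 10 windows of 300 bases in all. In the mouse genome (GRCm38) *Cux2* (ENSMUSG00000042589) lies on chromosome 5 at 121856366 to 122050102, on the minus strand. *Cux1* (ENSMUSG00000029705) lies on the same chromosome at 136248135 to 136567490, also on the minus strand. *Rorb* (ENSMUSG00000036192) is on chromosome 19 at 18930605 to 19111196, minus strand. *Pou3f2* (ENSMUSG00000095139) is on chromosome 4 at 22482780 to 22488366, minus strand, and *Pou3f3* (ENSMUSG00000045515) on chromosome 1 at 42695768 to 42703176, plus strand. *Lmo4* (ENSMUSG00000028266) is on chromosome 3 at 144188530 to 144205220, minus strand. The windows below run 5′ to 3′ along the gene, from 250 bases before the start to 50 bases after it, with the T-box core GGTGTG or its reverse complement CACACC in capitals.
Cux2, outer start, chr5:122049802-122050101, minus strand: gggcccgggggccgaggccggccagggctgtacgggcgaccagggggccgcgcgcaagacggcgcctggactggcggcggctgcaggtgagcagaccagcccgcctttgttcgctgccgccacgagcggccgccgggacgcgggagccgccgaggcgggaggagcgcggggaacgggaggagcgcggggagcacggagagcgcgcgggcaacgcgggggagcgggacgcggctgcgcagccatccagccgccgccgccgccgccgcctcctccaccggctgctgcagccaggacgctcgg
Cux2, inner start, chr5:122047776-122048075, minus strand: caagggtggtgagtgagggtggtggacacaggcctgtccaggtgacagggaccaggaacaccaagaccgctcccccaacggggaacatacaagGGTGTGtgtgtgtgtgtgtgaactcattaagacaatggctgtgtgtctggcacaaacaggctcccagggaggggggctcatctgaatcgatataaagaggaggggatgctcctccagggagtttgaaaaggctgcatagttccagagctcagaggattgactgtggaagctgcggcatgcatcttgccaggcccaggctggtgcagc
Rorb, outer start, chr19:19111147-19111446, minus strand: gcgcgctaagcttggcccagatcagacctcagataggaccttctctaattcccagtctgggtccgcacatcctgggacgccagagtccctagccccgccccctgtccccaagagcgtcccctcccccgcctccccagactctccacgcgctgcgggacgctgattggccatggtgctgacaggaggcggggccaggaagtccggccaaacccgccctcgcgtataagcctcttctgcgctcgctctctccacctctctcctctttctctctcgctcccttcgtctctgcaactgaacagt
The full T-box letters AGGTGTGA, searched on both strands, were in none of the 10 windows of the members and in 1.28% of the 32851 windows of all genes. The shorter core was in 2 of the 10, against 19.0% of all windows: the inner *Cux2* window at base 94, where it runs into a GT repeat, and the *Cux1* window chr5:136565932-136566231 at base 64. The outer *Cux2* window is 80.3% G and C, and that of *Rorb* 63.7%.

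*Cux2* and *Rorb* were higher and *Lmo4* lower in typical cells of both mutant libraries than in those of the wild-type library, and the ratios of *Cux1* and *Pou3f3* to wild-type had intervals that include 0. *Cux2* was the member with the largest difference, at 27.5 CPM (22.4 to 33.4, 101 UMIs) in the wild-type, 48.5 CPM (44.3 to 52.9, 505 UMIs) among heterozygous and 49.6 CPM (44.1 to 55.5, 301 UMIs) among homozygous cells. The intervals of the mutant libraries overlapped each other and both lay above that of the wild-type library. The log2 ratio of heterozygous to wild-type cells was 0.82 (0.51 to 1.14), or 1.76-fold, and that of homozygous cells 0.85 (0.52 to 1.19), or 1.80-fold, while the mutant libraries differed from each other by 0.03 (-0.18 to 0.24). *Cux2* was also higher in outside cells of both mutant libraries, while atypical cells showed no difference beyond counting error. In outside cells *Cux2* stood at 14.3, 56.5 and 26.7 CPM, where heterozygous cells exceeded wild-type cells by 1.98 (1.67 to 2.31) on the log2 scale and homozygous cells did so by 0.90 (0.46 to 1.34), and the makeup of these cells differed between libraries. In atypical cells it stood at 31.1, 27.7 and 21.5 CPM, with ratios of -0.16 (-1.76 to 1.19) and -0.53 (-1.57 to 0.47) on 21, 6 and 16 UMIs.

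*Cux2* was the 1 member of 6 past 1.5-fold in the homozygous against wild-type comparison, as a rise, where 2.96% of the 4261 genes at a mean of 20 CPM or more were higher by that fold and 1.95% lower. By mean raw UMIs per cell, a measure that also carries the depth of the cells, its ratio was 0.43 and below that fold. It was also the 1 member past that fold in the heterozygous against wild-type comparison, where 3.59% of genes were higher and 2.39% lower. No member passed 1.5-fold between the mutant libraries, where 0.681% of genes were higher and 0.469% lower in the homozygous library. The median log2 ratio of the 6 members was 0.21, 0.10 and 0.08 in these 3 comparisons, against 0.08, 0.06 and 0.01 over all 4261 genes. Both comparisons with wild-type share that 1 library.

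**Figure D1:**
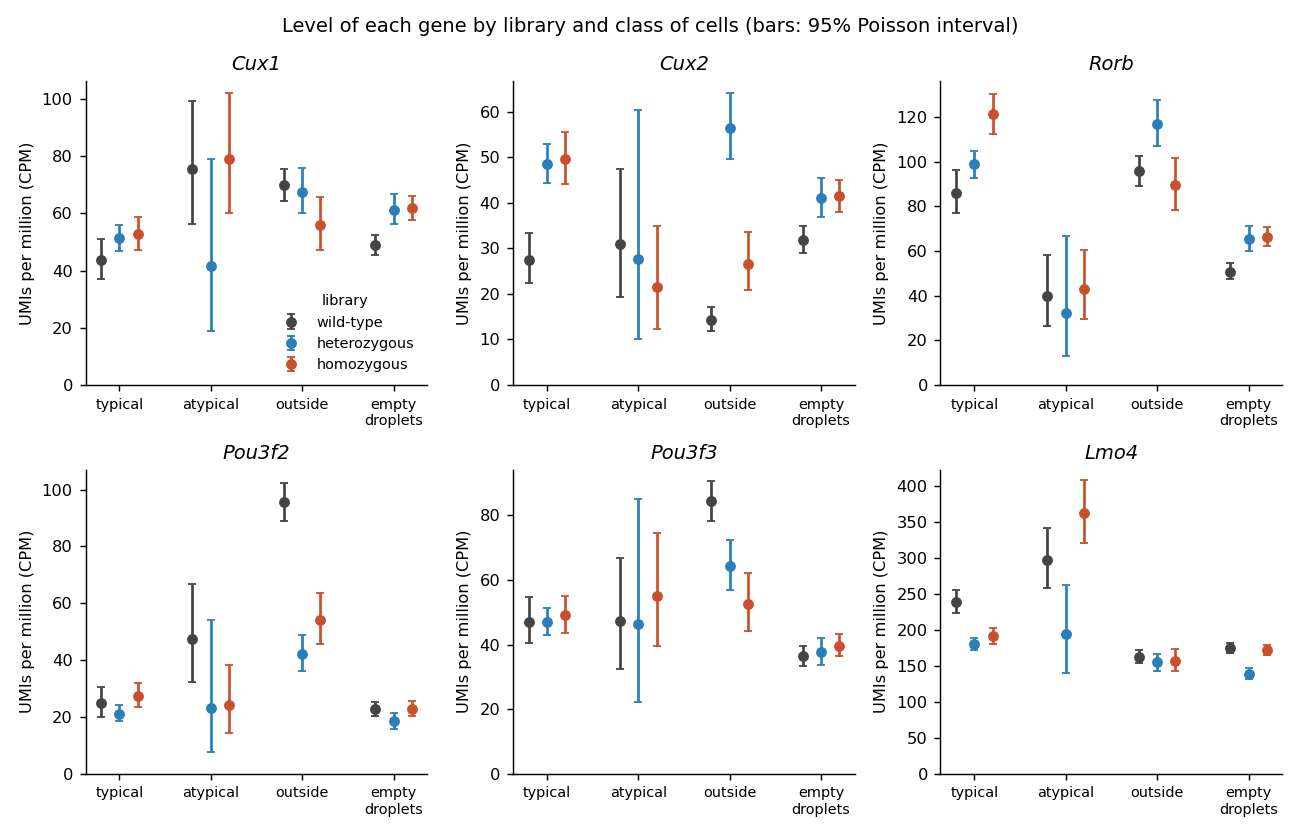
Level of each gene in UMIs per 1000000 (y axis, from 0) in typical, atypical and outside cells and in empty droplets (x axis), 1 point per library with its 95% Poisson interval. *Cux2* rises from 27.5 CPM in typical wild-type cells to 48.5 and 49.6 CPM in the mutant libraries, and *Rorb* is at most 42.9 CPM in atypical cells of any library.

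*Rorb* stood at 86.1 CPM (76.9 to 96.1) in wild-type, 98.8 CPM (92.8 to 105) in heterozygous and 121 CPM (113 to 130) in homozygous typical cells. The 3 libraries thus stood in the order of the number of floxed alleles, although the wild-type and heterozygous intervals overlapped at their ends. On the log2 scale heterozygous cells exceeded wild-type cells by 0.20 (0.01 to 0.38), homozygous cells did so by 0.49 (0.30 to 0.69), and homozygous over heterozygous was 0.29 (0.16 to 0.43). None of these reached 1.5-fold. By mean raw UMIs per cell, which also carry depth, heterozygous over wild-type was 0.11 and homozygous over wild-type 0.074. Homozygous over heterozygous was then -0.038, so the order by floxed alleles did not hold on that measure. *Rorb* was also 1 of the 3 genes by which the study recognized its neuronal clusters, so its level in typical cells against other cells was in part fixed by that choice.

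*Lmo4* was the most abundant of the 6, at 238 CPM (223 to 254) in wild-type, 179.6 CPM (172 to 188) in heterozygous and 191 CPM (180.1 to 202) in homozygous typical cells. Both mutant intervals lay below the wild-type interval. Over wild-type cells the log2 ratio of heterozygous cells was -0.41 (-0.52 to -0.29) and that of homozygous cells -0.32 (-0.45 to -0.19), with 0.09 (-0.02 to 0.20) between the mutant libraries. *Lmo4* therefore moved against *Cux2* and *Rorb*, and by less than 1.5-fold.

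*Cux1* stood at 43.6 CPM (37.1 to 50.9) in wild-type, 51.3 CPM (47.0 to 55.8) in heterozygous and 52.7 CPM (47.1 to 58.8) in homozygous typical cells. Its log2 ratios to wild-type of 0.23 and 0.27 had intervals that reached 0, from -0.02 to 0.50 and from -0.005 to 0.56, and the latter ratio was 0.033 with cells thinned to 1000 UMIs and -0.15 by mean raw UMIs per cell. Because the *Cux1* locus also makes the transcript of CASP, a Golgi protein that shares part of the gene, its UMIs may count more than the homeodomain factor. *Pou3f3*, at 47.1, 46.9 and 49.1 CPM, showed log2 ratios to wild-type of -0.01 (-0.26 to 0.25) and 0.06 (-0.22 to 0.34), so a difference of 1.5-fold lies outside both intervals. *Pou3f2* was the least abundant overall at 24.8, 21.1 and 27.5 CPM, with -0.23 (-0.59 to 0.14) and 0.15 (-0.23 to 0.53) to wild-type. The homozygous library exceeded the heterozygous one for *Pou3f2* by 0.38 (0.08 to 0.68).

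**Figure D2:**
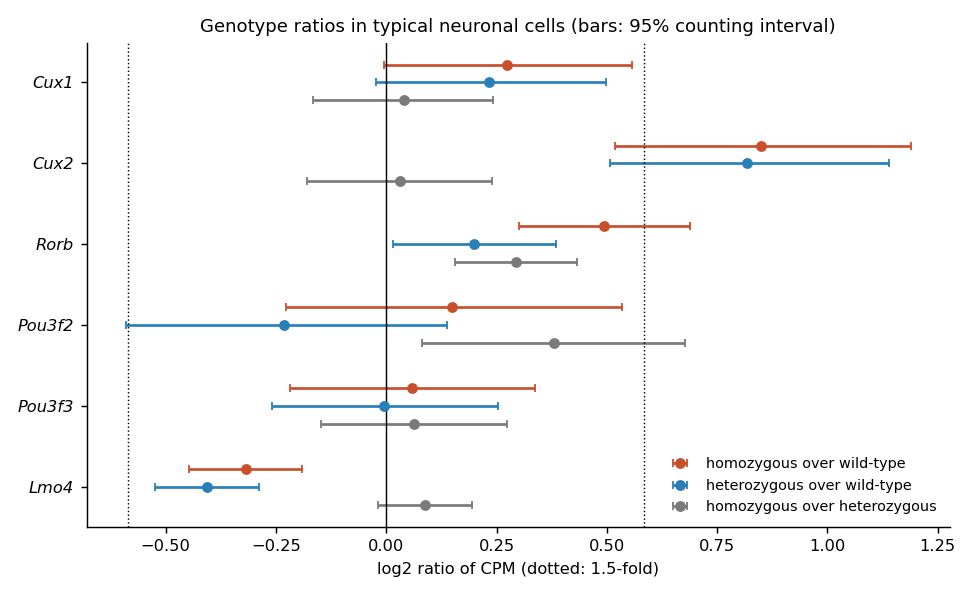
Log2 ratios of CPM between genotypes in typical neuronal cells (x axis) for each gene (y axis), with 95% counting intervals, colored by comparison. Dotted lines mark 1.5-fold. Both *Cux2* ratios to wild-type, 0.82 and 0.85, lie past that line, *Lmo4* lies left of 0 at -0.41 and -0.32, and *Rorb* lies right of 0 at 0.20 and 0.49.

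*Lmo4* and then *Rorb* had the highest levels in typical cells of every library, and *Pou3f2* the lowest. In the mutant libraries the intervals of *Cux1*, *Pou3f3* and *Cux2* overlapped, so these 3 did not differ beyond counting error, and *Pou3f2* lay below them. In the wild-type library *Cux1* and *Pou3f3* overlapped, and *Cux2* and *Pou3f2*, at 27.5 and 24.8 CPM, formed a lower pair.

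Levels in empty droplets, which hold free RNA, moved with some of these differences. In empty droplets *Cux2* stood at 31.8, 41.0 and 41.4 CPM, with log2 ratios to wild-type of 0.36 (0.16 to 0.57) and 0.38 (0.20 to 0.56). *Rorb* stood at 50.8, 65.4 and 66.5 CPM there, and *Cux1* at 48.9, 61.3 and 61.9 CPM, both again higher in the mutant libraries. The droplet ratios of *Rorb* to wild-type were 0.36 (0.20 to 0.52) for the heterozygous and 0.39 (0.25 to 0.53) for the homozygous library. The heterozygous one was larger than the 0.20 of typical cells. *Lmo4* stood at 174 CPM, 139 CPM and 172 CPM in empty droplets, where its log2 ratio to wild-type was -0.33 (-0.43 to -0.23) for the heterozygous library, near that of typical cells, and -0.02 (-0.10 to 0.06) for the homozygous one. *Pou3f2* was higher in homozygous than in heterozygous droplets by 0.31 (0.03 to 0.60), and in outside cells by 0.36 (0.04 to 0.68), much as in typical cells. Against the empty droplets of its own library, *Rorb* was higher in typical cells by 0.76, 0.59 and 0.87, *Lmo4* by 0.45, 0.37 and 0.15 and *Pou3f3* by 0.37, 0.32 and 0.31. *Cux2* was at -0.21 (-0.53 to 0.10) in wild-type, 0.24 (0.04 to 0.44) in heterozygous and 0.26 (0.05 to 0.46) in homozygous typical cells against their droplets. *Cux1* was lower than in empty droplets in both mutant libraries, by -0.26 and -0.23, and stood at -0.17 (-0.42 to 0.08) in the wild-type library. Its CPM in typical cells was thus in no library above that in the droplets. This comparison does not give the share of its UMIs that is free RNA, which was not tested. The droplet profile was subtracted at the largest share that non-neuronal markers allow, 23.0%, 12.4% and 15.5% in the 3 libraries. The ratios to wild-type then became 0.92 for heterozygous and 0.96 for homozygous cells in *Cux2*, 0.10 and 0.44 in *Rorb*, and -0.47 and -0.40 in *Lmo4*, each with its sign kept. The summed excitatory markers given above also rose from wild-type to homozygous cells, and their part in the *Cux2* and *Rorb* values was not tested. In typical cells the median mitochondrial share was 10.4%, 15.4% and 12.5%, endothelial markers summed to 85.3, 17.0 and 34.2 CPM and blood markers to 345, 44.6 and 85.8 CPM, so these too differed between the wild-type and both mutant libraries. In outside cells the mitochondrial share was 4.45%, 13.0% and 7.95%. Their part in the *Cux2*, *Rorb* and *Lmo4* values was not tested.

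To set the depth equal, every cell was thinned to 1000 UMIs and cells with at least 1 UMI were counted. With so few UMIs of these genes per cell, this share nearly follows the mean. It therefore does not separate more cells with a transcript from more of it per cell. *Cux2* was found in 2.70% of wild-type (1.997 to 3.56), 4.35% of heterozygous (3.82 to 4.93) and 4.63% of homozygous typical cells (3.99 to 5.33), with exact binomial intervals. *Rorb* was found in 7.54% (6.35 to 8.86), 8.19% (7.47 to 8.96) and 9.66% (8.75 to 10.6), and *Lmo4* in 19.97% (18.1 to 21.9), 15.4% (14.4 to 16.4) and 16.3% (15.2 to 17.5). These shares followed the CPM, in the same order for *Rorb* and *Cux2*, and for *Lmo4* with the wild-type share above both mutant shares. Without thinning, *Cux2* was in 5.06%, 7.56% and 6.45% of cells, *Lmo4* in 36.7%, 27.5% and 23.4%, and *Rorb* in 15.4%, 14.8% and 14.4%, which turns the order of *Rorb* while the median depth falls in the same order. Endothelial-like cells, which should lack neuronal genes, gave thinned shares of 0.885% for *Cux2*, 1.77% for *Rorb* and 5.53% for *Lmo4*, at a median depth of 2918 UMIs before thinning. By library, thinning left *Rorb* in 0 of 252 endothelial-like cells of the wild-type library. This allows a share of up to 1.19% by 3 counts and 1.45% by the exact interval. It was found in 1.33% of 75 heterozygous cells and in 5.60% of 125 homozygous cells (2.28 to 11.2). The latter interval overlapped that of the typical cells. Without thinning, 9, 5 and 9 endothelial-like cells had a *Rorb* UMI. Its levels there were 9.31, 21.9 and 26.5 CPM on 9, 5 and 10 UMIs, higher in both mutant libraries as in typical cells. Their intervals overlapped, which does not exclude a difference. In each library the interval of endothelial-like cells lay below the one of typical cells. The size of the *Rorb* background difference between libraries, and its overlap with typical cells, thus depended on the thinning. *Cux2* was found in 0.397%, 1.33% and 1.60% of endothelial-like cells and *Lmo4* in 7.94% (4.92 to 11.99), 1.33% (0.0338 to 7.21) and 3.20% (0.879 to 7.99), on 1 to 20 cells each. Without thinning the *Cux2* shares were 1.98%, 1.33% and 2.40%, and its levels 5.17, 4.37 and 7.95 CPM on 5, 1 and 3 UMIs. The direction of its heterozygous background thus depended on the thinning. The *Lmo4* level in endothelial-like cells, at 71.4, 39.4 and 55.6 CPM, was lower in both mutant libraries as in typical cells, with overlapping intervals. Because *Lmo4* was present in every named cell type, this level cannot be read as background alone. The part of the background in the *Rorb*, *Cux2* and *Lmo4* shares was not tested. *Cux1* is an exception, since 5.09% of endothelial-like cells had a UMI of it, near the 4.72%, 5.13% and 4.65% of typical cells, so its share in typical cells was not above that of endothelial-like cells. None of 61 blood-like cells had a UMI of it after thinning, with an exact upper bound of 5.87%, and whether the *Cux1* UMIs are free RNA was not tested. Shares of *Pou3f2* and *Pou3f3* in typical cells ranged over the libraries from 1.90% to 2.69% and from 4.57% to 4.84%, against 0.885% each in endothelial-like cells.

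Cells with *Cux2* also held *Rorb* and *Cux1* more often than their separate shares give. At 1000 UMIs per cell, 78 typical cells held both *Cux2* and *Rorb* where 40.3 were expected from the separate shares within each library, a ratio of 1.94 (1.53 to 2.42). *Cux1* and *Cux2* met in 42 cells against 22.7 expected, 1.85 (1.33 to 2.50), and *Cux2* and *Pou3f2* in 23 against 10.6, 2.18 (1.38 to 3.27), although a second random thinning gave 1.33 (0.709 to 2.28) for that pair. These were the 3 of 15 member pairs whose interval lay above 1, and no pair lay below it.

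The *Cux2* and *Rorb* pair was above expectation in each library, at 1.94 (0.778 to 3.99) in wild-type, 1.68 (1.15 to 2.37) in heterozygous and 2.22 (1.58 to 3.03) in homozygous cells, and the first of these intervals includes 1. *Cux1* and *Cux2* met in 1 wild-type cell against 2.27 expected, and at 2.01-fold the expectation in both mutant libraries. In the opposite direction, *Cux2* and *Fezf2*, the selector of subcerebral neurons, met in 10 cells against 21.5 expected, 0.464 (0.223 to 0.854). Among pairs of a member with *Fezf2*, *Bcl11b* or *Tbr1*, only this summed interval left 1, and the pair was not counted in the second thinning. *Cux2* with *Bcl11b*, another subcerebral factor, stood at 1.14 (0.782 to 1.59), and with *Tbr1* at 0.992 (0.513 to 1.73). *Lmo4* was paired with each of the others near expectation, from 0.917 with *Bcl11b* to 1.20 with *Pou3f3*. These counts are sparse and describe cells of 3 libraries.

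**Figure D3:**
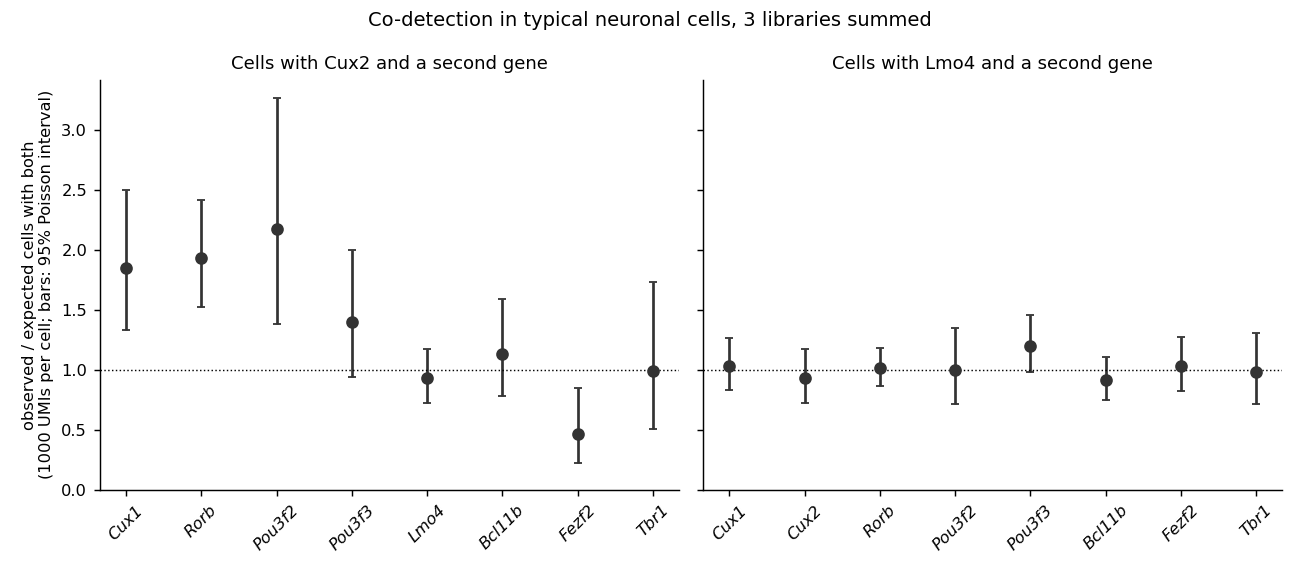
Observed over expected number of typical cells with UMIs of 2 genes (y axis, from 0) for *Cux2* (left) and *Lmo4* (right) with each second gene (x axis), at 1000 UMIs per cell and summed over 3 libraries, with 95% Poisson intervals. *Cux2* lies above 1 with *Cux1*, *Rorb* and *Pou3f2* and at 0.464 with *Fezf2*, while every *Lmo4* interval includes 1. All values are of the first random thinning.

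Deep-layer genes were lower in cells with *Rorb* in both mutant libraries. The summed UMIs of the 15 listed deep-layer genes in cells with a *Rorb* UMI, over those in cells without, gave log2 ratios of -0.18 (-0.42 to 0.05) in wild-type, -0.47 (-0.62 to -0.32) in heterozygous and -0.30 (-0.46 to -0.15) in homozygous cells. *Pcp4*, a calmodulin-binding peptide gene, made up 68.1% of these UMIs, and without it the ratios were -0.07, -0.38 and -0.42. The same comparison for cells with *Cux2* gave -0.12 (-0.51 to 0.24), -0.35 (-0.55 to -0.15) and -0.18 (-0.40 to 0.03), and without *Pcp4* -0.78 (-1.79 to 0.06), -0.31 (-0.68 to 0.03) and -0.15 (-0.53 to 0.20), all with intervals that include 0. The other upper-layer and callosal genes were higher in cells with *Rorb* by 0.14 (0.06 to 0.22) among heterozygous and 0.21 (0.13 to 0.29) among homozygous cells, with 0.14 (-0.01 to 0.28) among wild-type cells, but *Ptn*, a secreted growth factor also made by glia, held 90.9% of those UMIs. Without *Ptn* the ratios were 0.11 (-0.38 to 0.58), 0.19 (-0.08 to 0.45) and 0.29 (0.01 to 0.56).

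Other genes of the same programs were set beside the members in the genotype comparisons. Of 26 listed upper-layer and callosal genes 25 were in the table and 6 reached 20 CPM, and none of these passed 1.5-fold in any comparison, with a median log2 ratio to wild-type of 0.05 for heterozygous and 0.08 for homozygous cells. *Btg1*, an antiproliferative factor, stood at -0.46 (-0.73 to -0.19) and -0.38 (-0.67 to -0.07). *Lhx2*, *Cited2*, *Ptn* and *Nnmt* ranged from -0.28 for *Nnmt* to 0.14 for *Ptn* in homozygous cells. Of the 15 deep-layer genes 9 reached 20 CPM and none passed 1.5-fold, with medians of -0.23 and -0.13. *Pcp4* showed -0.30 (-0.36 to -0.24) and -0.41 (-0.47 to -0.34), *Bcl11b* -0.31 (-0.52 to -0.09) and 0.07 (-0.15 to 0.29), and *Fezf2* 0.15 (-0.11 to 0.42) and 0.27 (-0.01 to 0.56). *Etv1*, a layer 5 factor, stood at -0.40 (-0.74 to -0.07) and 0.06 (-0.28 to 0.41), *Crym* at -0.16 and -0.34, and *Ldb2* at 0.07 and -0.20.

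Among relatives and partners of the members, 8 of 9 were in the table and 4 reached 20 CPM. *Lmo3*, a LIM-only relative of *Lmo4*, was past 1.5-fold in both mutant libraries, where heterozygous cells showed 0.72 (0.49 to 0.96) and homozygous cells 0.73 (0.48 to 0.99), while *Lmo1* stood at 0.05 and -0.10. *Pou3f1* (Oct6), the POU factor nearest to *Pou3f2* and *Pou3f3*, stood at 0.17 (-0.01 to 0.35) in heterozygous against 0.76 (0.58 to 0.95) in homozygous cells, and exceeded 1.5-fold between the mutant libraries at 0.59 (0.46 to 0.72). *Satb1* stood at 0.01 and 0.19. Within the LIM-only and POU families, then, *Lmo4* and *Lmo3* stood on opposite sides of 0, and *Pou3f1* stood apart from a level *Pou3f3*.

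In atypical neuronal cells *Rorb* was low in every library, at 40.0, 32.4 and 42.9 CPM, which is -1.11 (-1.73 to -0.54), -1.61 (-2.93 to -0.56) and -1.50 (-2.06 to -0.99) against typical cells of the same library. The heterozygous value rests on 7 UMIs in 107 cells. The summed excitatory markers stood at 583, 2423 and 1180 CPM in these cells, against 2029, 2454 and 3103 CPM in typical cells. By this sum the heterozygous atypical cells were thus not low in excitatory markers. All 6 striatal neuron markers were detected in every library and summed to 336, 453 and 564 CPM in atypical cells, against 33.0, 32.9 and 51.2 CPM in typical cells, and their part in the member differences was not tested. *Cux2* was lower in homozygous atypical cells by -1.21 (-2.03 to -0.48) and at 0.18 (-0.58 to 0.86) in wild-type ones, and its heterozygous value of -0.80 (-2.26 to 0.33) rests on 6 UMIs. *Lmo4* was higher in atypical cells, by 0.32 (0.09 to 0.54) in wild-type and 0.92 (0.73 to 1.12) in homozygous cells, with 0.11 (-0.36 to 0.55) in heterozygous cells. *Cux1* was higher by 0.79 (0.31 to 1.25) and 0.59 (0.16 to 0.99) in wild-type and homozygous atypical cells, and its heterozygous value of -0.30 (-1.44 to 0.64) rests on 9 UMIs. *Pou3f2* was higher by 0.93 (0.30 to 1.53) in wild-type atypical cells and stood at 0.13 (-1.51 to 1.38) in heterozygous and -0.19 (-0.98 to 0.52) in homozygous ones. Past 1.5-fold, 2 members were higher and 1 lower in the wild-type library, where 11.7% of genes were higher and 7.34% lower. In the heterozygous library 0 were higher and 2 lower, against 11.6% and 19.3% of genes, and in the homozygous library 2 were higher and 2 lower, against 5.71% and 10.7%. These classes were cut by clustering on the same cells, so the ratios describe the classes and test nothing.

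Typical cells differed from outside cells in ways that varied between libraries. *Pou3f2* was lower in typical cells in all 3, by -1.95 (-2.27 to -1.63) in wild-type, -0.997 (-1.29 to -0.71) in heterozygous and -0.98 (-1.31 to -0.65) in homozygous cells. *Cux2* was higher by 0.95 and 0.89 in the wild-type and homozygous libraries and stood at -0.22 (-0.44 to 0.01) in the heterozygous one. *Lmo4* was higher by 0.55, 0.22 and 0.28, and *Cux1* stood at -0.68, -0.40 and -0.09, its heterozygous value turning to 0.14 when cells were thinned to 1000 UMIs. Past 1.5-fold, 1 member was higher and 3 lower in the wild-type library, against 11% of genes higher and 44.2% lower. The 3 include *Cux1*, whose difference was below 1.5-fold with cells thinned to 1000 UMIs. In the heterozygous library 0 members were higher and 1 lower, with 1.16% and 22.5% of genes, and in the homozygous library 1 was higher and 1 lower, with 7.86% and 35.2%. The makeup of the outside cells also differed, with 90, 284 and 50 excitatory-like, 274, 26 and 26 cycling-like and 501, 130 and 170 astrocyte-like cells. Cells of clusters that could not be named numbered 520, 519 and 407, with *Cux2* at 7.95, 40.9 and 29.1 CPM. The part of that makeup in the outside levels was not tested.

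To place the members by cell type, the outside cells were clustered without these 6 genes and named only from listed markers. With the libraries summed, *Rorb* was highest in astrocyte-like cells. It stood there at 290 CPM (263 to 319) in wild-type, 251.5 CPM (205 to 305) in heterozygous and 234 CPM (188 to 287) in homozygous cells, above typical neurons of the same library each time. The 3 intervals overlapped. In excitatory-like cells it stood at 102 CPM (68.6 to 147), 193 CPM (169.5 to 218) and 238 CPM (159 to 342), so that the astrocyte-like level was above it in the wild-type library and not distinguishable from it in the homozygous one. It fell to 61.5 CPM in inhibitory-like and 15.3 CPM in endothelial-like cells over all libraries.

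With the libraries summed, *Cux2* stood at 85.4 CPM (72.1 to 100.5) in excitatory-like and 40.1 CPM (32.9 to 48.5) in inhibitory-like cells, and was at 14.96 CPM in astrocyte-like and 5.28 CPM in cycling-like cells. The heterozygous library held 284 of the 424 excitatory-like cells. By library the excitatory-like level was 53.0 CPM (29.7 to 87.4), 97.5 CPM (81.2 to 116) and 32.8 CPM (8.95 to 84.1, 4 UMIs), and the inhibitory-like level 29.99 CPM, 69.1 CPM and 40.6 CPM, so the order of these types turned in the homozygous library, within counting error. Among inhibitory-like cells *Cux2* was higher in the cluster led by *Npy* and *Sst*, 58.7 CPM (45.8 to 74.0), than in the cluster led by *Sp8* and *Meis2*, 24.7 CPM (17.3 to 34.2). *Pou3f2* was reversed between these clusters, at 26.4 CPM (18.1 to 37.3) and 105 CPM (88.9 to 123). Within libraries the *Cux2* levels were 44.9, 84.2 and 47.0 CPM in the first cluster against 24.6, 27.3 and 22.3 CPM in the second, the same direction each time but with overlapping intervals, and those of *Pou3f2* 37.8, 22.3 and 18.3 CPM against 99.4, 116 and 141 CPM, with no overlap. The first cluster had a median depth of 3260 UMIs and the second of 1899 UMIs.

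With the libraries summed and among the named types as wholes, *Pou3f2* was highest in cycling-like cells, 266 CPM (237 to 298). It stood at 127 CPM (113 to 142) in astrocyte-like and 5.09 CPM in endothelial-like cells. In excitatory-like cells it stood at 201 CPM (153 to 261) in the wild-type library, above the astrocyte-like level there of 133 CPM (115 to 152), and at 41.0 and 49.3 CPM in the mutant libraries. *Pou3f3* stood at 135 CPM (114 to 158) in cycling-like and 137 CPM (122 to 153) in astrocyte-like cells, with overlapping intervals, and at 7.63 CPM in endothelial-like cells. A small cluster of 37 excitatory-like cells was led by *Eomes* and *Neurod1*, genes of intermediate progenitors and new neurons, and 31 of them were in the wild-type library. There *Pou3f2* reached 651 CPM (488 to 851) and *Pou3f3* 454 CPM (319.9 to 626), while the larger excitatory-like cluster of 387 cells, led by *Nrgn* and *Bhlhe22*, held 39.0 and 82.9 CPM. The larger cluster carried *Cux2* at 87.9 CPM and *Rorb* at 186 CPM, with 282 of its cells in the heterozygous library, and its median depth of 4396 UMIs was above that of typical cells.

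*Lmo4* was present in every type, from 52.5 CPM (28.7 to 88.0, 14 UMIs) in blood-like and 62.9 CPM (51.1 to 76.6) in endothelial-like cells to 212.5 CPM (195 to 231) in inhibitory-like, 209 CPM (187 to 231) in excitatory-like and 228 CPM (188 to 274) in meningeal-like cells, the last 3 not differing beyond counting error. *Cux1* varied little between most named types, at 67.8 CPM in astrocyte-like, 66.3 CPM in microglia-like and 65.5 CPM in endothelial-like cells. Among these named types its highest value was in cycling-like cells at 104 CPM (86.0 to 124) and its lowest in blood-like cells at 22.5 CPM (8.25 to 48.9, 6 UMIs).

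**Figure D4:**
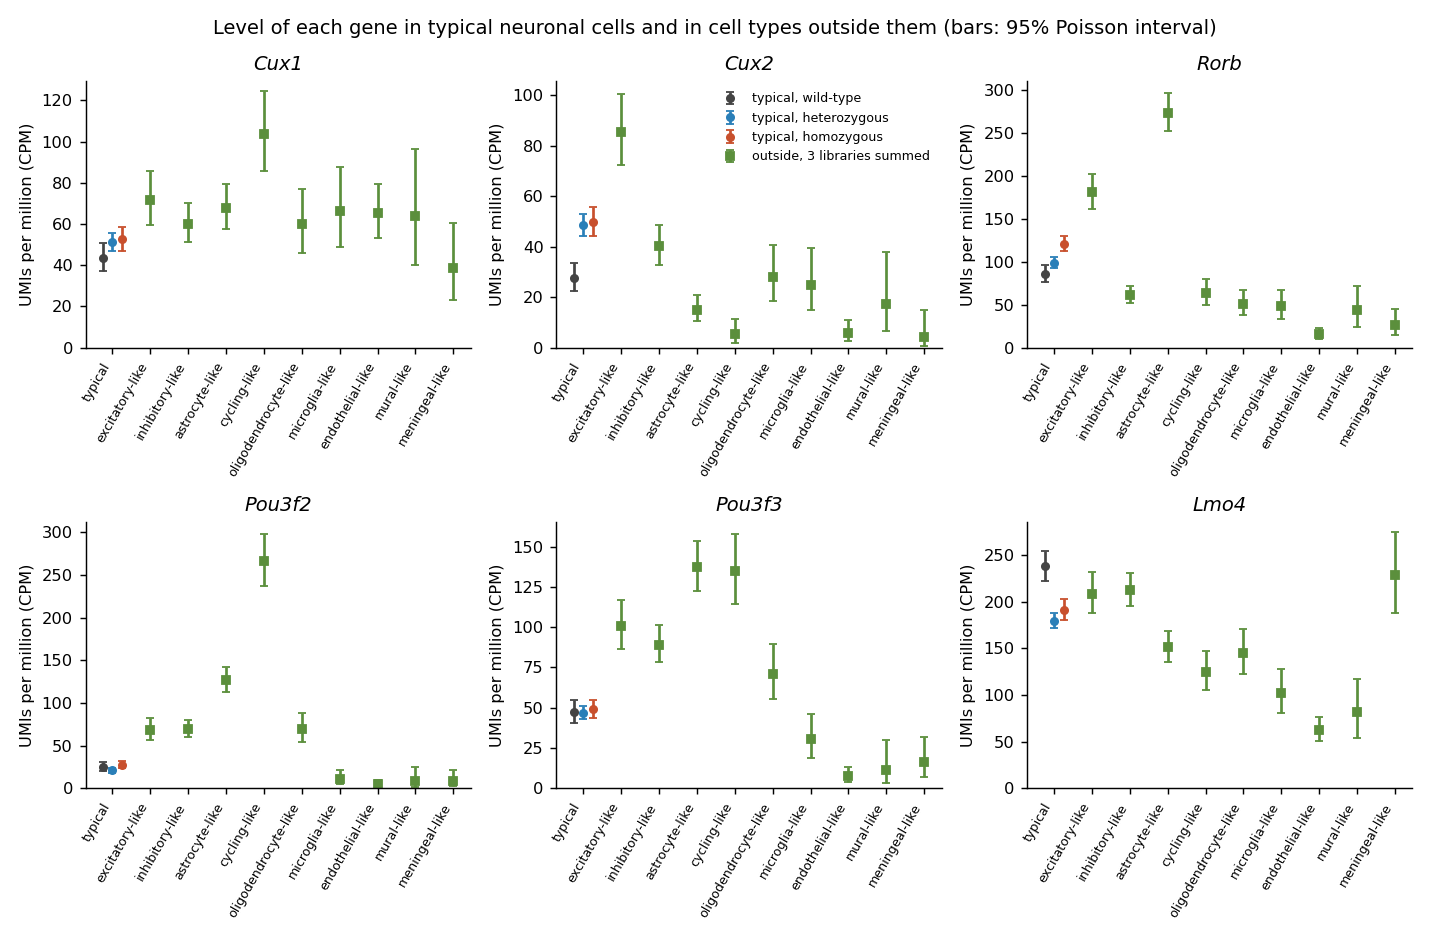
Level of each gene in UMIs per 1000000 (y axis, from 0) in typical neuronal cells of each library (circles) and in named outside cell types with the 3 libraries summed (green squares), with 95% Poisson intervals. In these sums *Rorb* peaks in astrocyte-like cells at 274 CPM, *Pou3f2* in cycling-like cells at 266 CPM and *Cux2* in excitatory-like cells at 85.4 CPM, 284 of whose 424 cells are of the heterozygous library, and *Lmo4* is above 60 CPM in every type shown, blood-like cells being left out of the plot.

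Across 25 sums of a library and a cell group, the genes whose log2(CPM + 1) followed a member most closely were *Deaf1*, *Gabra5* and *Vamp2* for *Cux2*, with Pearson r of 0.90, 0.88 and 0.87. They were *Hmgcs1*, *Fdps* and *Trim9* for *Rorb*, at 0.90, 0.90 and 0.87, the first 2 being enzymes of sterol synthesis. For *Pou3f2* they were *Syt11*, *Sox2* and *Apba2*, at 0.89, 0.88 and 0.86, and for *Pou3f3* *Apba2*, *Rsph9* and *Eif1b*, at 0.88, 0.88 and 0.87. *Lmo4* was followed by *Saxo2*, *Bex1* and *Nnat*, at 0.92, 0.89 and 0.89. For *Cux1* the values were lower, with *Ppp1r9a* at 0.59 and *Ncaph2* at 0.56. Among the members themselves the closest pair was *Pou3f2* and *Pou3f3*, r = 0.84, and *Cux1* and *Cux2* stood at -0.26. These sums share libraries and free RNA, so r is a description.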

How the data were processed

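Per the labels, 3 libraries of tdTomato-positive P5 mPFC cells were aligned and counted by the authors with Cell Ranger 2.0.1 on mm10. The deposited matrices and filtered table hold raw UMI counts without normalization, and the authors kept 17396 cells and 14933 genes. The neuronal table deposited as raw counts is on a natural log scale, since its back-transformed values equal the raw UMIs, and gave only the gene set of an alternative CPM total. The quality columns deposited by the authors are a fraction of UMIs. The scaled table was not used.

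UMIs were summed per library and class (3670646 to 10418228 UMIs in typical cells) and scaled to CPM by the class total, so a level of 3 UMIs is at most 0.817 CPM there. Outside cells were clustered in scanpy 1.11.5 (2000 genes, 30 components, Leiden resolution 1) into 23 clusters, of which 14 were named. The likeness of genes used log2(CPM + 1), a pseudocount of 1. Genes named were the 6 members, *Tbr1*, *Rbp4*, the 3 largest rises and falls of each list and the 3 genes most like each member, of which a few are not reported here. Members and lists were chosen with earlier results of these data known. No doublet caller was run, and the 5% of cells with the most UMIs were left out as an alternative. Scaling by DESeq2 1.42.0 and edgeR 4.0.16 factors was tried too. The MAST test of the study was not repeated, because cells are not replicates. Ratios and thinning were tested on simulated data.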

Additional observations from a re-analysis of the deposited data

Results flagged for a closer look

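The log2 ratio of *Lmo4* in the homozygous over the wild-type library was 0.28 (0.02 to 0.56) in atypical cells and -0.32 (-0.45 to -0.19) in typical cells, on opposite sides of 0. The difference was not tested. The atypical value rests on 270 and 201 UMIs in 462 and 304 cells. The log2 ratio of *Rorb* in the homozygous over the heterozygous library was -0.39 (-0.62 to -0.16) in outside cells and 0.29 (0.16 to 0.43) in typical cells, again on opposite sides, and this difference was not tested either. Astrocyte-like cells, with *Rorb* at 234 and 251.5 CPM, made up 170 of 1182 outside cells in the homozygous and 130 of 1398 in the heterozygous library, and excitatory-like cells, with *Rorb* at 238 and 193 CPM, 50 and 284.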

How the results depend on the processing

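No paired analysis was possible because each genotype has 1 library. Of 180 alternative values of the genotype ratios 167 stayed within the counting interval. Mean raw UMIs per cell, which fall with the lower depth of homozygous cells, gave homozygous over wild-type log2 ratios of -0.15 for *Cux1*, 0.43 for *Cux2*, 0.074 for *Rorb*, -0.27 for *Pou3f2*, -0.36 for *Pou3f3* and -0.74 for *Lmo4*. In homozygous over heterozygous they gave -0.29 for *Cux1*, -0.30 for *Cux2*, 0.047 for *Pou3f2*, -0.27 for *Pou3f3* and -0.24 for *Lmo4*, and *Rorb* turned to -0.038. With atypical cells included, *Lmo4* moved to 0.22 in that comparison. The lowest and highest of all settings were 0.43 and 1.17 for *Cux2* and -0.74 and -0.24 for *Lmo4* in homozygous over wild-type cells, and 0.73 and 1.14 for *Cux2* in heterozygous over wild-type cells. The highest *Cux2* values came from subtracting droplets of 10 to 99 UMIs, a setting added after the data were seen.

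Of 108 class ratios 97 stayed. Thinning to 1000 UMIs moved typical over outside in wild-type cells to -0.38 for *Cux1*, -0.35 for *Rorb* and 0.24 for *Lmo4*, in heterozygous cells to 0.013 for *Cux2* and, reversed, 0.14 for *Cux1*, and in homozygous cells to 0.087 for *Rorb*. Per-cell means gave *Rorb* -0.085 in heterozygous and 0.21 in homozygous cells, and without the deepest 5% of cells the latter was 0.10. Atypical over typical moved to 0.19 for *Pou3f2* when thinned in wild-type cells, and to -3.25 for *Rorb* without the deepest 5% in heterozygous cells. The ratio of *Cux2* and *Pou3f2* co-detection was 1.33 in the second thinning. The causes were not tested.

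Genes past 1.5-fold depended on the floor. With every gene that had a UMI in each library, 1619 were higher and 2107 lower in homozygous against wild-type, 1429 and 2063 in heterozygous against wild-type, and 1365 and 1021 between the mutant libraries, against 126 and 83, 153 and 102, and 29 and 20 at 20 CPM. At 100 CPM the counts were 23 and 31, 34 and 38, and 9 and 3.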

Other observations

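Some small outside clusters that could not be named held high levels of single members. In 13 cells led by *Dynlrb2* and *Tmem212*, genes of motile cilia, *Lmo4* reached 739.5 CPM (518 to 1024, 36 UMIs), the highest level of *Lmo4* in any cluster, and *Cux2* and *Rorb* had 0 UMIs. In 70 cells led by *Reln* and *Ndnf*, genes of Cajal-Retzius cells and of layer 1 interneurons, *Cux1* stood at 114 CPM (82.2 to 154) while *Cux2* stood at 5.43 CPM (0.657 to 19.6), *Pou3f3* at 8.14 CPM and *Lmo4* at 59.7 CPM. *Gad1*, an inhibitory neuron marker, stood at 0 CPM in these 70 cells. In 104 cells led by *Sfrp1* and *Ptx3*, *Pou3f2* reached 331 CPM (264 to 410), *Rorb* 237 CPM (181 to 305) and *Pou3f3* 162 CPM (116 to 219). The wild-type library held 50 of the 70 and 83 of the 104 cells.

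Microglia-like cells carried *Cux2* at 3.16 CPM (0.0799 to 17.6, 1 UMI) in the wild-type, 47.8 CPM (25.5 to 81.8, 13 UMIs) in the heterozygous and 29.5 CPM (8.04 to 75.5, 4 UMIs) in the homozygous library. These levels rest on few UMIs and stand beside 31.8, 41.0 and 41.4 CPM in the empty droplets of the same libraries.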
